A study of Mus musculus with 14 samples.

Results

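Whole hearts of male C57BL/6 mice aged 2 months, with and without Sqstm1 in heart muscle cells, are compared here across all genes. The comparison takes 6 of the 14 libraries of the series, chosen by their labels: 3 knockout hearts and 3 wild-type hearts (the controls), all untreated. The knockout mice are labelled Myh6-Cre-Sqstm1fl/fl, and the controls are labelled wildtype with no mention of Cre or of the floxed allele. The other 8 libraries (4 knockout and 4 wild-type hearts aged 15 months) share the fitted model and serve as a second age. Cre recombinase under the Myh6 promoter acts in heart muscle cells, so the other cells of the heart keep Sqstm1, and a whole-heart library mixes both. Fewer cells of a type and less RNA per cell cannot be told apart in such libraries.

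Sqstm1 encodes p62, a receptor that carries ubiquitin-tagged cargo into autophagosomes by binding LC3. p62 also binds Keap1, the adaptor that marks the transcription factor Nrf2 for breakdown, and Nrf2 in turn drives genes for antioxidant and detoxifying enzymes, Sqstm1 among them. Heart muscle cells are long-lived and rich in mitochondria, so autophagy and antioxidant defence are both studied there as quality control. The title of the series places Nrf2 protein levels and oxidative stress at its centre.

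One control library stood apart before any comparison was made. Wild-type replicate 1 carried atrial transcripts. Its levels were 638 counts per 1000000 (CPM) of the atrial light chain Myl7, 485 CPM of Myl4, 144 CPM of sarcolipin (Sln) and 3.22 CPM of Bmp10. In the other 5 libraries Myl7 was at 0.0597 to 0.303 CPM, Myl4 at 0.812 to 1.86 CPM, Sln at 0 to 0.0404 CPM and Bmp10 at 0. Transcripts typical of fat cells were also higher in it, with Adipoq at 6.75 CPM against 0.0404 to 0.253 CPM in the others. In it 322 of 15528 genes lay more than 2 times above all 5 other libraries, against 2 to 48 genes in any other library. The first principal component of the 6 libraries (38.4% of the variance, over 2000 variable genes) placed it at −52.2 and the others between 4.48 and 21.2. The results below are therefore given with it and, where a value turns on it, without it. Both replicate 3 hearts also shared a feature: the clock transcript Ciart was at 20.2 CPM in wild type and 16.3 CPM in knockout, and at 0.657 to 1.2 CPM in the remaining 4. Heart muscle markers were high in every library, with the troponin Tnni3 at 3123 to 3716 CPM. Others varied more, with Tnnt2 at 1330 to 3453 CPM. The light chain Myl2 was at 5259 CPM in wild-type replicate 1 and at 8524 to 13793 CPM in the others. Total counts ranged from 20218992 to 23651521 among controls and from 21969498 to 26230284 among knockouts, and mitochondrially encoded genes took 29.0% to 40.7% and 31.4% to 39.1% of them.

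Sqstm1 (ENSMUSG00000015837, chromosome 11, 50199366 to 50210827, minus strand, GRCm38) fell to 10.1% of its wild-type level. It was at 177, 139 and 169 CPM in the controls and 15.2, 14.7 and 19.2 CPM in the knockouts, in replicate order. Every knockout heart lay below every wild-type heart by a wide margin, and the 3 knockout values were close to each other. The means were 162 ± 20.03 CPM and 16.4 ± 2.49 CPM (SD, n = 3 each). The log2 fold change was −3.30 (SE 0.31; Benjamini-Hochberg adjusted p = 0.00036 by the edgeR quasi-likelihood test), and −3.23 (SE 0.33, adjusted p = 0.00202) without wild-type replicate 1. An exact two-sided permutation test over the 6 hearts gave p = 0.1, the smallest value that 3 against 3 allows. The counts cover the full gene, so reads from any undeleted exons and from cells without Cre are part of the knockout level. The labels do not say whether hearts of a group came from separate litters or were handled apart, so the p-values reflect how far these samples scatter, which may in part be technical.

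The genes on both sides of Sqstm1 lay higher in knockout. Mgat4b (chromosome 11, 50210890 to 50235103, plus strand) starts head to head with Sqstm1 and encodes an enzyme that adds branches to N-linked sugar chains. Only 62 bases separate the annotated starts (chr11:50210828-50210889, GRCm38), and this stretch is shown because both genes start at its edges. It is written 5′ to 3′ on the minus strand, in the direction of Sqstm1, from the RefSeq promoter table of build GRCm38.p6. Capitals mark the letters GGGCGG and their reverse complement CCGCCC, the GC box bound by Sp1-family factors:
Sqstm1 to Mgat4b gap: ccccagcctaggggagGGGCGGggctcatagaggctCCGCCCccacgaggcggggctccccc
At least 1 GC box on either strand is found in 35.7% of all RefSeq promoters of 300 bases, so the letters are common. The letters TATAAA, searched on both strands, were not found in the gap and are in 13.6% of all promoters.

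Mgat4b was at 41.8, 45.9 and 59.98 CPM in the controls and 82.5, 81.1 and 79.8 CPM in the knockouts. The 3 knockout values lay close together and above all wild-type values, while wild-type hearts ranged more widely (log2 fold change 0.72, SE 0.16, adjusted p = 0.9997 by edgeR). Mrnip, which encodes a protein that works with the DNA repair complex MRN, lies on the other side and shares 750 bases with the end of Sqstm1 on the opposite strand. Its range was 1.98 to 2.37 CPM in the knockouts, and the controls lay at 1.28, 1.61 and 1.121 CPM, again with no overlap between the groups (log2 fold change 0.67, SE 0.30). Mrnip and Sqstm1 had 230 and 12380 counts over the 6 libraries, and whether reads in the shared bases were assigned by strand is not given in the sources used here. Of 19 measured genes within the surrounding stretch of the chromosome, 10 lay above 0, 3 had no overlap and were higher (Mgat4b, Mrnip and the chaperone gene Canx, log2 fold change 0.16, SE 0.14), and 1 had no overlap and was lower (Gfpt2, log2 fold change −1.05, SE 0.33). Over all genes tested, 4.43% had no overlap and were higher and 3.72% had no overlap and were lower. Without wild-type replicate 1 the values were 0.62 for Mgat4b, 0.65 for Mrnip and −0.81 for Gfpt2. Then 7 of 19 had no overlap and were higher and 4 of 19 lower, against 11.5% and 11.9% of all genes. None of the neighbours passed the test.

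**Figure D1:**
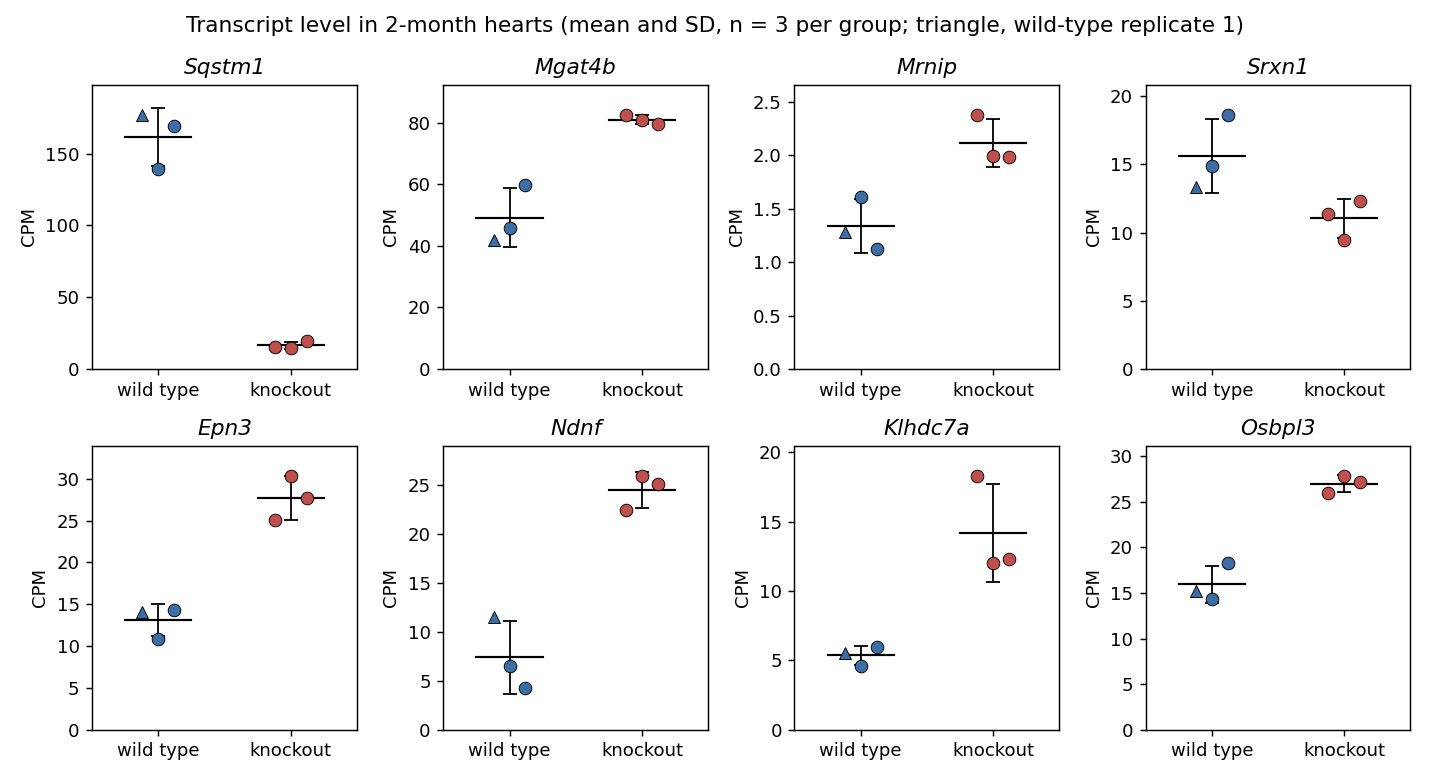
Level (CPM, axes from 0) of 8 genes in the 3 wild-type (blue) and 3 knockout (red) hearts at 2 months; points are hearts, bars the mean and SD, and triangles wild-type replicate 1. In all 8 panels the groups do not overlap: Sqstm1 and Srxn1 are lower in knockout and the other 6 genes higher.

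Across all genes, Sqstm1 was the only one of 15528 to pass an adjusted p of 0.05 (0.00644% of genes tested). Leaving out wild-type replicate 1 again left Sqstm1 alone, then among 16034 genes (0.00624%). The fold changes were balanced around 0, with 7717 genes above 0 (49.7%), 7810 below 0 (50.3%) and a median of −0.00148. An unadjusted p under 0.05 was found for 494 genes (3.18%), of which 181 (1.17%) were higher and 313 (2.02%) lower in knockout. Without wild-type replicate 1 it was 497 genes (3.1%), with the balance turned to 296 higher (1.85%) and 201 lower (1.25%), and 49.6% of all genes lay above 0 and 50.4% below. Groups that did not overlap were found for 688 genes higher (4.43%) and 577 genes lower (3.72%), together 1265 (8.15%). These shares are the background for the counts of gene lists, above and further on. With 3 knockout and 2 wild-type hearts the corresponding shares were 11.5% and 11.9%.

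**Figure D2:**
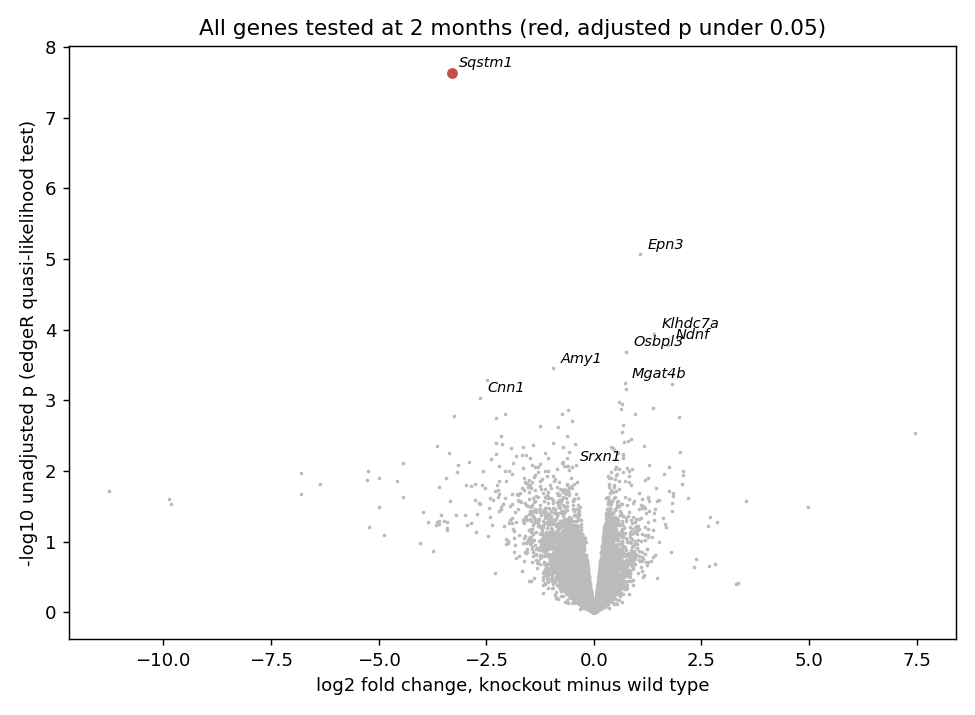
All 15528 genes tested at 2 months, by log2 fold change (horizontal axis, knockout minus wild type) and −log10 of the unadjusted p (vertical axis). Sqstm1, at −3.30, is the only gene past the adjusted threshold (red), and Epn3, at 1.08, comes next.

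After Sqstm1, the 4 genes with the smallest p were higher in knockout, and none passed the test. They are described here as an order, not as calls. Epn3 (chromosome 11, 94489599 to 94499974), which encodes epsin 3, an adaptor of clathrin-coated pits, came second after Sqstm1. It was at 14.1, 10.9 and 14.3 CPM in the controls and 25.1, 30.3 and 27.7 CPM in the knockouts. All 3 knockout hearts thus lay well above all 3 wild-type hearts (log2 fold change 1.08, SE 0.16, edgeR adjusted p = 0.0667; 0.19 without wild-type replicate 1). Epn3 passed in 4 other settings: with no filter on low counts (adjusted p = 0.0291), with a filter at a mean CPM of 1 (0.0487), by DESeq2 (5.93e-06), and by DESeq2 without wild-type replicate 1 (0.00012). Klhdc7a, a kelch-domain gene on chromosome 4, was at 5.51, 4.6 and 5.95 CPM in the controls and 18.3, 12.1 and 12.3 CPM in the knockouts. Replicate 1 was the highest knockout heart for this gene (log2 fold change 1.40, SE 0.27). Ndnf, which encodes a secreted protein, was at 11.5, 6.51 and 4.21 CPM in the controls and 22.4, 25.9 and 25.2 CPM in the knockouts. Its knockout values were close together, and wild-type replicate 1, at 11.5 CPM, was the nearest to them (log2 fold change 1.72, SE 0.34). Without that heart the Ndnf difference was 2.21 (SE 0.34, edgeR adjusted p = 0.127). Osbpl3, a lipid transfer protein of the oxysterol-binding family, was at 15.2, 14.4 and 18.3 CPM in the controls and 26, 27.8 and 27.2 CPM in the knockouts (log2 fold change 0.76, SE 0.15). DESeq2 called Klhdc7a and Ndnf (adjusted p = 0.00532 for both) and Osbpl3 (0.0196), and the fit of the 2-month hearts alone without wild-type replicate 1 called Ndnf (0.00648). Without that heart DESeq2 again called Klhdc7a (0.0496) and Ndnf (1.07e-06) but not Osbpl3 (0.41).

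The other 8 genes high in this order gave log2 fold changes from 0.57 to 0.97. Mgat4b, given above, was one of them. Cidea, a lipid droplet protein, was at 12.6, 11 and 12.4 CPM in the controls and 19.3, 17.9 and 19.4 CPM in the knockouts, and its SD within either group was below 1 CPM. Gpd1, the cytosolic glycerol-3-phosphate dehydrogenase that links glycolysis to lipid synthesis, was at 31.1, 27 and 36.2 CPM in the controls and 45.8, 57.4 and 44.9 CPM in the knockouts (log2 fold change 0.65, SE 0.18). Mov10l1, a helicase gene with a heart-specific transcript, was at 29.5, 31.9 and 32.9 CPM in the controls and 49.9, 49.1 and 52.1 CPM in the knockouts. Aen, a nuclease gene activated by p53, was at 14.7, 14.5 and 16.2 CPM in the controls and 23, 23.9 and 23.9 CPM in the knockouts (log2 fold change 0.64, SE 0.16). For Mov10l1 and Aen the spread within each group was small beside the gap between them. Ptprn, a protein of secretory vesicles, was at 6.31 to 6.67 CPM in the knockouts and 3.04 to 3.75 CPM in the controls. Ybx2, a nucleic-acid binding protein best known from germ cells, was at 6.47 to 8.78 CPM in the knockouts and 4.29 to 4.81 CPM in the controls. Nrbp2, a pseudokinase, was at 12.8 to 14.9 CPM in the knockouts and 8.46 to 10.9 CPM in the controls. These 3 genes lay above 0 in each alternative, and the fold change of Nrbp2 was 0.71 without wild-type replicate 1.

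Several genes lower in knockout depended on wild-type replicate 1. Cnn1, the smooth muscle protein calponin 1, was at 8.1, 0.895 and 1.62 CPM in the controls and 0.758, 0.355 and 0.607 CPM in the knockouts. Wild-type replicate 1 alone set most of this difference, which was −2.64 with it and −1.16 without it. Ptgfr, the prostaglandin F receptor, behaved the same way at 34.9, 5.97 and 4.37 CPM in the controls and 3.49, 2.17 and 3.68 CPM in the knockouts (−2.28, and −0.72 without). DESeq2 called Cnn1 with all hearts (adjusted p = 0.0373) and not without wild-type replicate 1. Camk1d, a calmodulin-dependent kinase, was at 1.62 to 2.62 CPM in the knockouts and 2.86 to 8.38 CPM in the controls, and Pla2g4a, the phospholipase that releases arachidonic acid, at 1.9 to 2.83 CPM in the knockouts and 3.36 to 5.82 CPM in the controls.

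The other 7 genes lower in knockout gave −0.94 to −0.45 with all hearts and −0.89 to −0.36 without that heart. Rasl12, a small GTPase of the Ras family, was at 8.03, 8.12 and 8.12 CPM in the controls and 5.76, 5.05 and 5.3 CPM in the knockouts, nearly the same in all 3 wild-type hearts (log2 fold change −0.59, SE 0.15; −0.59 without wild-type replicate 1). Snx10, a sorting nexin of the endosomal system, was at 12.5, 15.1 and 13.3 CPM in the controls and 8.99, 8.82 and 8.73 CPM in the knockouts (log2 fold change −0.62, SE 0.18; −0.67 without). Abca12, a lipid transporter, was at 2.83 to 4.03 CPM in the knockouts and 5.19 to 6.59 CPM in the controls, and Epdr1, an ependymin-related lysosomal protein, at 9.75 to 11.4 CPM in the knockouts and 12.5 to 16.9 CPM in the controls. Tgfbr1, the type I receptor for TGF-beta, was at 26.4, 21.7 and 23.5 CPM in the controls and 16.2, 17.6 and 18.7 CPM in the knockouts (log2 fold change −0.45, SE 0.13). D1Ertd622e was at 2.48 to 3.49 CPM in the knockouts and 4.71 to 5.31 CPM in the controls. Amy1, an amylase gene with near copies beside it and 1633 bases shared with Rnpc3, was at 1.36 to 1.5 CPM in the knockouts and 1.97 to 3.46 CPM in the controls and is uncertain for that reason.

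Some genes came first in the order when wild-type replicate 1 was left out. Cacna1h, the T-type calcium channel Cav3.2, was at 34.1, 8.54 and 8.85 CPM in the controls and 20.4, 20.6 and 19.7 CPM in the knockouts. The 3 knockout hearts lay close together and between wild-type replicate 1 and the other wild-type hearts. Its log2 fold change was 0.23 with all hearts and 1.22 (SE 0.30, edgeR adjusted p = 0.996) without that one, and the fit of the 2-month hearts alone without it called the gene (adjusted p = 0.0411). Lower in this order were Ano10, a member of the anoctamin family, at 25.7 to 35 CPM in the knockouts and 27.9 to 63.1 CPM in the controls (−0.87 without wild-type replicate 1), and Twf2, the actin-binding protein twinfilin 2, at 85.3 to 103 CPM in the knockouts and 88.8 to 162 CPM in the controls (−0.61). Prrg1 gave −0.61, Rpp40 −0.74 and, higher, Mphosph8 0.80. Nrbp2 passed by DESeq2 without wild-type replicate 1 (adjusted p = 0.0496), as did the predicted gene Gm42208, named here after its value was seen.

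Autophagy and lysosome genes other than Sqstm1 centred near 0. Of 19 measured autophagy receptors 10 lay above 0, with a median of 0.03 (0.05 without wild-type replicate 1). Tex264, a receptor for the endoplasmic reticulum, was at 17.2 to 18.9 CPM in the knockouts and 15.4 to 16.7 CPM in the controls, the only one of them with no overlap. That was 1 of 19 higher, against 4.43% of all genes. Leaving out wild-type replicate 1 gave 5 of 19 higher and 2 of 19 lower with no overlap, against 11.5% and 11.9% of all genes. Nbr1, the receptor most like p62, gave 0.30 (SE 0.25), Optn 0.03 and Tax1bp1 0.10. In the core machinery 21 of 35 members lay above 0, with a median of 0.05. Ulk1, the kinase that starts autophagy, was at 61.7, 57.1 and 71.7 CPM in the controls and 66.5, 76.2 and 83.6 CPM in the knockouts (log2 fold change 0.25, SE 0.14), with overlapping groups. Atg14, a subunit of the lipid kinase complex, was at 7.97 to 8.11 CPM in the knockouts and 5.37 to 7.79 CPM in the controls. In the core list 1 of 35 was higher and 1 of 35 lower with no overlap, against 4.43% and 3.72% of all genes. These counts became 5 of 35 and 7 of 35 without wild-type replicate 1, against 11.5% and 11.9%. Lysosomal genes had a median of −0.01, and 3 of 31 lay lower with no overlap, namely Gusb at −0.30, Lamp2 at −0.12 and Asah1 at −0.12. The share over all genes was 3.72%. Without wild-type replicate 1, 6 of 31 lay lower with no overlap, against 11.9% of all genes. No member of these lists passed the test.

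Nrf2 target genes lay on both sides of 0. Of 37 measured targets 18 lay above 0 and 19 below, with a median of −0.11 and −0.13 without wild-type replicate 1, against −0.00148 over all genes. Lower with no overlap were 4 of 37, the sulfiredoxin gene Srxn1, the microsomal transferase Mgst1, the carbonyl reductase Cbr3 and the glutathione reductase Gsr. Gstp2, 1 of 37, was higher with no overlap. Over all genes the shares were 3.72% lower and 4.43% higher. Without wild-type replicate 1, 7 of 37 were lower and 7 of 37 higher with no overlap, against 11.9% and 11.5% of all genes. Srxn1, which restores overoxidised peroxiredoxins, was at 13.3, 14.9 and 18.6 CPM in the controls and 11.4, 9.49 and 12.3 CPM in the knockouts (log2 fold change −0.50, SE 0.16; −0.59 without wild-type replicate 1; lowest adjusted p over the alternatives 0.76). The gap between the groups was narrow, from 12.3 CPM in the highest knockout heart to 13.3 CPM in wild-type replicate 1. Mgst1 was at 34.4, 34.2 and 31.8 CPM in the controls and 28.2, 16.8 and 22.3 CPM in the knockouts (log2 fold change −0.58, SE 0.22). Nqo1, the quinone reductase often used as an Nrf2 readout, was at 31.5, 34.6 and 57.8 CPM in the controls and 28.7, 26.6 and 36.6 CPM in the knockouts, where knockout replicate 3 reached into the wild-type range (log2 fold change −0.43, SE 0.22). Cbr3 had lower counts, at 1.29 to 1.67 CPM in the knockouts and 2.09 to 2.17 CPM in the controls, and Gsr differed by −0.11 only. Gstp2 is nearly identical to Gstp1, so its value of 0.47 is uncertain.

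The 140 bases before the annotated start of Srxn1 (chr2:152105376-152105515, GRCm38, plus strand) are shown because Srxn1 is the target whose value is followed at both ages. They come from the RefSeq promoter table of build GRCm38.p6, and capitals mark TGAGTCA, the letters of an AP-1 site, which lie inside some Nrf2 sites:
Srxn1 upstream: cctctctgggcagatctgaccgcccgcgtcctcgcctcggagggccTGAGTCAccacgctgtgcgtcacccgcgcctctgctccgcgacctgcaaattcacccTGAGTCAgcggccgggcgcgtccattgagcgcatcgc
TGAGTCA occurred 2 times here and is found on either strand in 5.2% of all RefSeq promoters of 300 bases. TGACNNNGC, a core form of the Nrf2 site, was searched on both strands as well, was not found in this window and is in 12.4% of all promoters. As written, the marked letters begin with TGAG, so on this strand they could not match a form that begins with TGAC. On the other strand they read TGACTCA, and each match is followed there by gg, where the form needs gc. On the strand shown, the later marked match is followed directly by gc, and other forms of the Nrf2 site were not searched. These matches describe letters and not binding.

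Regulators of Nrf2 gave small values. Nfe2l2, which encodes Nrf2, was at 42.6, 42.9 and 58.7 CPM in the controls and 39.6, 43 and 77.8 CPM in the knockouts. Replicate 3 was the highest heart in both groups, and the value of 0.15 (SE 0.27) turned to −0.22 without knockout replicate 3. Keap1 was at 38.3 to 43.6 CPM in the knockouts and 35.9 to 38.4 CPM in the controls (log2 fold change 0.11, SE 0.14). Sesn2, a stress protein that promotes the loss of Keap1, was at 2.52, 2.33 and 1.62 CPM in the controls and 2.58, 3.9 and 2.67 CPM in the knockouts (log2 fold change 0.50, SE 0.30), and Btrc, part of a second ligase for Nrf2, at 13 to 14.8 CPM in the knockouts and 10.5 to 12.9 CPM in the controls. Among enzymes that remove peroxide and superoxide, 16 of 28 lay below 0 with a median of −0.02. Leaving out wild-type replicate 1 put 20 of 28 below 0, with a median of −0.12. Of these 28 genes, 5 were then lower and 1 higher with no overlap, against 11.9% and 11.5% of all genes. In this list Gpx3, a secreted peroxidase, was at 358, 77 and 113 CPM in the controls and 95, 86.3 and 106 CPM in the knockouts. The difference of −0.93 with all hearts was 0.02 without wild-type replicate 1.

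Lists of protein quality control genes had medians from −0.01 to 0.13 with all hearts. Chaperone genes lay above 0 in 21 of 30 cases with a median of 0.07, and the small heat shock genes Hspb6 (log2 fold change 0.29, SE 0.17) and Cryab (log2 fold change 0.23, SE 0.18) had no overlap. They made 2 of 30 higher, against 4.43% of all genes. Leaving out wild-type replicate 1 gave 4 of 30 higher and 0 of 30 lower with no overlap, against 11.5% and 11.9% of all genes. Hspb6 was at 527, 498 and 489.6 CPM in the controls and 565, 678 and 604 CPM in the knockouts. Proteasome subunits had a median of −0.01 (−0.11 without wild-type replicate 1). With all hearts 0 of 31 were without overlap, against 4.43% of all genes higher and 3.72% lower. Leaving that heart out put 23 of 31 below 0, with 6 of 31 lower and 0 of 31 higher with no overlap. The shares over all genes were then 11.9% and 11.5%. The muscle ubiquitin ligase Fbxo32 was at 198 to 213 CPM in the knockouts and 152 to 215 CPM in the controls (log2 fold change 0.21, SE 0.16), and Ubb was the 1 member of its list without overlap (0.13). That was 1 of 19 higher, against 4.43% of all genes, and again 1 of 19 without wild-type replicate 1, against 11.5%. In the list of endoplasmic reticulum stress and the integrated stress response, 16 of 28 lay above 0 with a median of 0.13, and the serine synthesis enzyme Phgdh, at 0.31 to 0.758 CPM in the knockouts and 0.58 to 1.19 CPM in the controls, lay on the other side (−1.04).

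Among p53 targets, 4 of 25 had no overlap and lay higher and 1 of 25 lay lower, with a list median of 0.08. Over all genes tested the shares were 4.43% and 3.72%. Without wild-type replicate 1, 5 of 25 lay higher and 3 of 25 lower with no overlap, against 11.5% and 11.9% of all genes. Eda2r, a death-domain receptor, was at 4.19, 5.25 and 6.99 CPM in the controls and 11.7, 8.95 and 8.01 CPM in the knockouts (log2 fold change 0.80, SE 0.23), and 0.64 without wild-type replicate 1. Phlda3, an inhibitor of Akt, was at 7.17, 6.09 and 5.76 CPM in the controls and 11.2, 9.49 and 9.99 CPM in the knockouts (log2 fold change 0.69, SE 0.21). Both genes were higher in each knockout heart than in any wild-type heart, as were Aen and Sesn2, given above. Pmaip1, the cell death gene for Noxa, was at 0.0886 to 0.121 CPM in the knockouts and 0.348 to 0.427 CPM in the controls (−1.81, SE 0.57), from 2 to 11 counts per library. Cdkn1a, the p21 gene, gave 0.80 (SE 0.61) with overlapping groups, and Mdm2 gave 0.08. None of these passed the test over all genes.

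Energy metabolism genes were shifted by little. Genes of fatty acid uptake and oxidation lay above 0 in 26 of 32 cases (median 0.13), the TCA cycle and branched-chain list in 24 of 30 (0.14), and glycolysis and glycogen in 21 of 26 (0.13). Without wild-type replicate 1 these medians were 0.10, 0.18 and 0.14. Mdh1 and Mdh2, the 2 malate dehydrogenases, gave 0.26 and 0.24, and Hk1, a hexokinase, was at 104, 57.4 and 78 CPM in the controls and 89.9, 137 and 123 CPM in the knockouts (log2 fold change 0.55, SE 0.27). Angptl4, an inhibitor of lipoprotein lipase, was at 13.8, 3.76 and 9.24 CPM in the controls and 38.1, 13.3 and 11.8 CPM in the knockouts, where knockout replicate 1 alone was high. Nuclear-encoded subunits of complex I had a median of 0.05 with all hearts and −0.13 without wild-type replicate 1, and complexes II to V 0.05 and −0.11, so their direction depended on that library. Within complex I, Ndufa10 was at 454 to 515 CPM in the knockouts and 398 to 436 CPM in the controls (0.21). For mRNAs of the mitochondrial genome the median was 0.23, and 0 of 13 were without overlap, against 8.15% of all genes in either direction. Leaving out wild-type replicate 1 gave 1 of 13 higher and 1 of 13 lower, against 11.5% and 11.9% of all genes. In the lipid droplet list, with 12 of 17 above 0 and a median of 0.09, Cidea and Cideb (0.48) were the members without overlap. They made 2 of 17 higher, against 4.43% of all genes. Leaving out wild-type replicate 1 gave 4 of 17 higher and 3 of 17 lower, against 11.5% and 11.9% of all genes.

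Most contractile genes of heart muscle lay slightly above 0, while overlap of the list level between the groups depended on the measure. In the sarcomere and Z-disc list 24 of 26 members were above 0, with a median of 0.22, and 19 of 26 with a median of 0.27 without wild-type replicate 1. Myom2, a protein of the M-band, was at 752, 612 and 614 CPM in the controls and 819.8, 1185 and 1027 CPM in the knockouts (log2 fold change 0.62, SE 0.27), and knockout replicate 2 was the highest. Myom1 (0.31), Tpm1 (0.21) and Tnni3 (0.16) were the other members without overlap, which made 4 of 26 higher against 4.43% of all genes. Without wild-type replicate 1, 7 of 26 were higher and 1 of 26 lower without overlap, against 11.5% and 11.9% of all genes. Myh6, whose promoter drives Cre, was at 11204, 6165 and 4153 CPM in the controls and 4929, 11578 and 9823 CPM in the knockouts. It varied 2.79-fold among the 6 hearts and overlapped fully between genotypes (log2 fold change 0.29, SE 0.38). On the heat map of lists the level was −0.07, −0.22 and 0.01 in the controls and −0.03, 0.28 and 0.13 in the knockouts, so that knockout replicate 1 lay below wild-type replicate 3. Taken as the mean log2(CPM + 0.1) over members, it was 10.107, 10.0647 and 10.1299 in the controls and 10.1355, 10.4658 and 10.395 in the knockouts. Knockout replicate 1 then lay just above wild-type replicate 3, and the groups did not overlap. At 15 months 10 of 26 members lay above 0, and the median was −0.03. Calcium handling and channel genes had a median of 0.08, with 4 of 30 higher and without overlap (Casq2 at 0.35, Kcnq1 at 0.27, Camk2a at 0.25 and Kcnh2 at 0.21) and 1 lower (Kcnd2 at −0.22). The shares over all genes were 4.43% and 3.72%. Without wild-type replicate 1, 4 of 30 were higher and 2 of 30 lower without overlap, against 11.5% and 11.9% of all genes. Casq2, the calcium store protein of the sarcoplasmic reticulum, was at 566, 618 and 692 CPM in the controls and 757, 843 and 787 CPM in the knockouts.

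Genes of adrenergic and muscarinic signalling had a median of 0.16, with 20 of 26 above 0, 4 of 26 higher without overlap and 2 of 26 lower. Over all genes tested the shares without overlap were 4.43% higher and 3.72% lower. Higher were Grk5, a kinase that switches off beta-adrenergic receptors, Prkaca, the catalytic subunit of protein kinase A, and the phosphodiesterases Pde1c and Pde3a. Grk5 was at 40.4, 33.5 and 41.5 CPM in the controls and 53.8, 48 and 49.5 CPM in the knockouts (log2 fold change 0.39, SE 0.18), and Prkaca at 185, 161 and 203 CPM in the controls and 219, 267 and 216 CPM in the knockouts (log2 fold change 0.36, SE 0.17). Pde1c was at 91, 99.3 and 95.4 CPM in the controls and 125, 149 and 134 CPM in the knockouts (log2 fold change 0.51, SE 0.27). Among those lower was the beta-arrestin Arrb2 at 3.59 to 4.85 CPM in the knockouts and 4.9 to 6.13 CPM in the controls (−0.34). Adrb1, the main beta receptor of heart muscle, gave 0.17. Without wild-type replicate 1 the list median was 0.19. Then 4 of 26 were higher and 2 of 26 lower without overlap, against 11.5% and 11.9% of all genes. Cardiac stress genes had a median of −0.38 (−0.05 without wild-type replicate 1), and 2 of 15 were lower without overlap, namely Postn, given with the matrix genes, and the calcineurin regulator Rcan1 at 43.7 to 45.5 CPM in the knockouts and 46.2 to 82.2 CPM in the controls (log2 fold change −0.39, SE 0.22). Over all genes 3.72% were lower without overlap. Without wild-type replicate 1, 2 of 15 cardiac stress genes were lower without overlap, against 11.9% of all genes. The natriuretic peptide genes overlapped between the groups. Nppa was at 366, 89.4 and 128 CPM in the controls and 136, 146 and 116 CPM in the knockouts, and Nppb at 54.1, 324 and 429 CPM in the controls and 341, 113 and 218 CPM in the knockouts. Nppa was highest in wild-type replicate 1 and Nppb lowest there, and their log2 fold changes of −0.55 and −0.27 were 0.30 and −0.75 without it.

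Several lists of non-muscle genes depended on wild-type replicate 1. Collagens and matrix had 43 of 45 below 0 and a median of −0.68 with all hearts, and 32 of 45 and −0.13 without it. Fibroblast markers had 18 of 20 below 0 and a median of −0.43 with all hearts, and 15 of 20 and −0.15 without it, and inflammation genes 21 of 25 below 0 and a median of −0.65 with all hearts, and 16 of 25 and −0.17 without it. On the scale of the heat map of lists (distance from the mean of the 6 hearts), matrix genes were at 1.08 in wild-type replicate 1, at 0.09 and −0.37 in the other 2 controls and at −0.40 to −0.19 in the knockouts. Some members nevertheless kept their groups apart. Thbs4, a matrix thrombospondin, was at 15, 5.79 and 4.6 CPM in the controls and 3.33, 2.97 and 3.28 CPM in the knockouts (log2 fold change −1.41, SE 0.42; −0.69 without wild-type replicate 1). Postn, periostin, was at 58.7, 22.9 and 23.8 CPM in the controls and 15.6, 12.6 and 16 CPM in the knockouts (log2 fold change −1.26, SE 0.41; −0.66 without). Vcan, the proteoglycan versican, was at 12 to 13.7 CPM in the knockouts and 16.2 to 37.1 CPM in the controls (−0.97; −0.57), and Mfap5, a microfibril protein, was at 19.6, 15.8 and 19.9 CPM in the controls and 12.8, 9.88 and 15.4 CPM in the knockouts (log2 fold change −0.54, SE 0.19; −0.49). Among inflammation genes, Socs3, which damps cytokine signals, was at 8.3, 2.81 and 4.52 CPM in the controls and 1.46, 0.842 and 2.75 CPM in the knockouts (−1.63; −1.11), and the chemokines Ccl2 and Cxcl1 gave −1.11 and −0.80 without that heart. Matrix genes without overlap and lower were 5 of 45, and inflammation genes 4 of 25, against the background of 3.72%. Without wild-type replicate 1 they were again 5 of 45 and 4 of 25, against a background of 11.9%. The 14 atrial markers summed to 14437 CPM in wild-type replicate 1, to 5079 to 6979 CPM in the other wild-type hearts and to 5846 to 12486 CPM in knockout, with Bmp10 at 0 outside that heart, and most of each sum was Myh6. The 13 fat cell markers summed to 964, 836 to 1051 and 1047 to 1159 CPM, mostly Fabp4 and Acsl1, which other heart cells also make. The part of fat tissue in these values was not tested beyond leaving that heart out, and that of atrial tissue only by leaving it out and by a fit with an atrial score as covariate, which left Sqstm1 as the only call.

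The median of macrophage markers moved little with that heart. 24 of 24 measured members were on the low side (median −0.31), and 22 of 24 with a median of −0.28 without wild-type replicate 1. These are counts of genes in the same hearts. On the heat map of lists the level was 0.29, 0.25 and −0.01 in the controls and −0.06, −0.27 and −0.11 in the knockouts. The mean log2(CPM + 0.1) over members was 3.41, 3.39 and 3.02 in the controls and 3.12, 2.79 and 2.94 in the knockouts. By that mean, knockout replicate 1 lay above wild-type replicate 3. F13a1, a coagulation factor made by resident macrophages, was at 56.7, 54.9 and 45.7 CPM in the controls and 44.8, 32.8 and 38.1 CPM in the knockouts (log2 fold change −0.44, SE 0.21). Cd68 was at 4.3, 2.75 and 3.17 CPM in the controls and 2.37, 2.7 and 2.18 CPM in the knockouts (−0.50), and Trem2, a lipid receptor, at 1.01 to 1.67 CPM in the knockouts and 1.7 to 1.91 CPM in the controls (−0.42). These 3 of 24 had no overlap, against 3.72% of all genes. Without wild-type replicate 1, 6 of 24 were lower with no overlap, against 11.9% of all genes. Adgre1, which encodes F4/80, was at 6.71 to 8.38 CPM in knockout and 8.04 to 13.8 CPM in wild type, and Csf1r at 19.2 to 25.3 and 20.3 to 32.5 CPM, with overlap. None passed the test. Of 20 lymphocyte and immunoglobulin markers, 9 passed the filter on low counts; Ighm was at 2.59 to 7.22 CPM in the knockouts and 2.4 to 4.69 CPM in the controls, while the T cell marker Cd3e was at or below 0.202 CPM and did not pass the filter. Endothelial markers had a median of 0.03 and 0.13 without wild-type replicate 1, and smooth muscle and mural markers −0.14 and 0.11. Immediate early genes had 21 of 24 below 0 and a median of −0.36 with all hearts, and 15 of 24 and −0.11 without it, with Fos at 30.2, 0.955 and 2.01 CPM in the controls and 5.0, 1.33 and 2.87 CPM in the knockouts. The cell cycle list had its median at −0.06, with Cenpf, a kinetochore protein, at 33.5, 18.8 and 20.4 CPM in the controls and 27.5, 54.8 and 59.2 CPM in the knockouts (log2 fold change 0.96, SE 0.50). Clock genes had a median of −0.02 and 0 of 23 without overlap, against 8.15% of all genes in either direction.

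**Figure D3:**
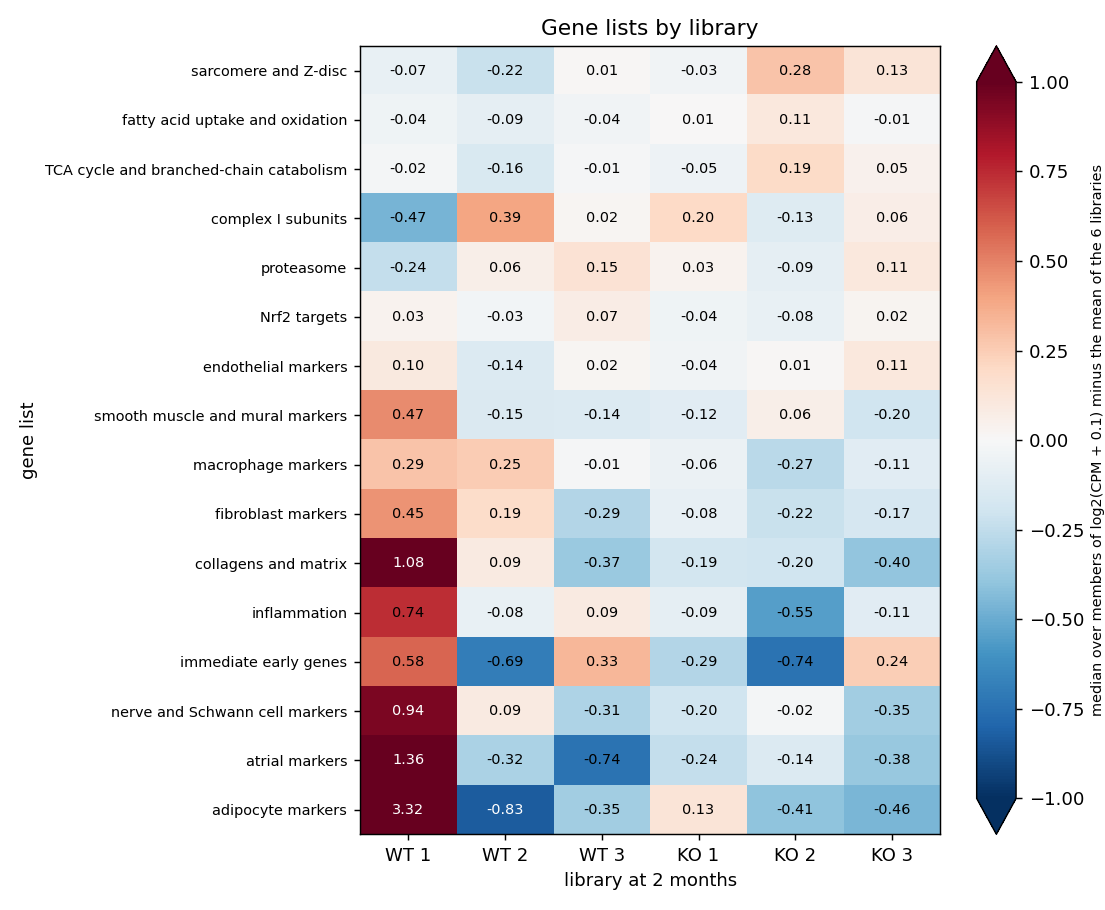
Level of 16 gene lists (rows) in the 6 hearts at 2 months (columns); each cell is the median over members of log2(CPM + 0.1) minus the mean of the 6 hearts, on a colour scale from −1 to 1. Matrix, inflammation, nerve, atrial and fat cell lists are highest in wild-type replicate 1, and the sarcomere list is highest in knockout replicate 2 (0.282).

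**Figure D4:**
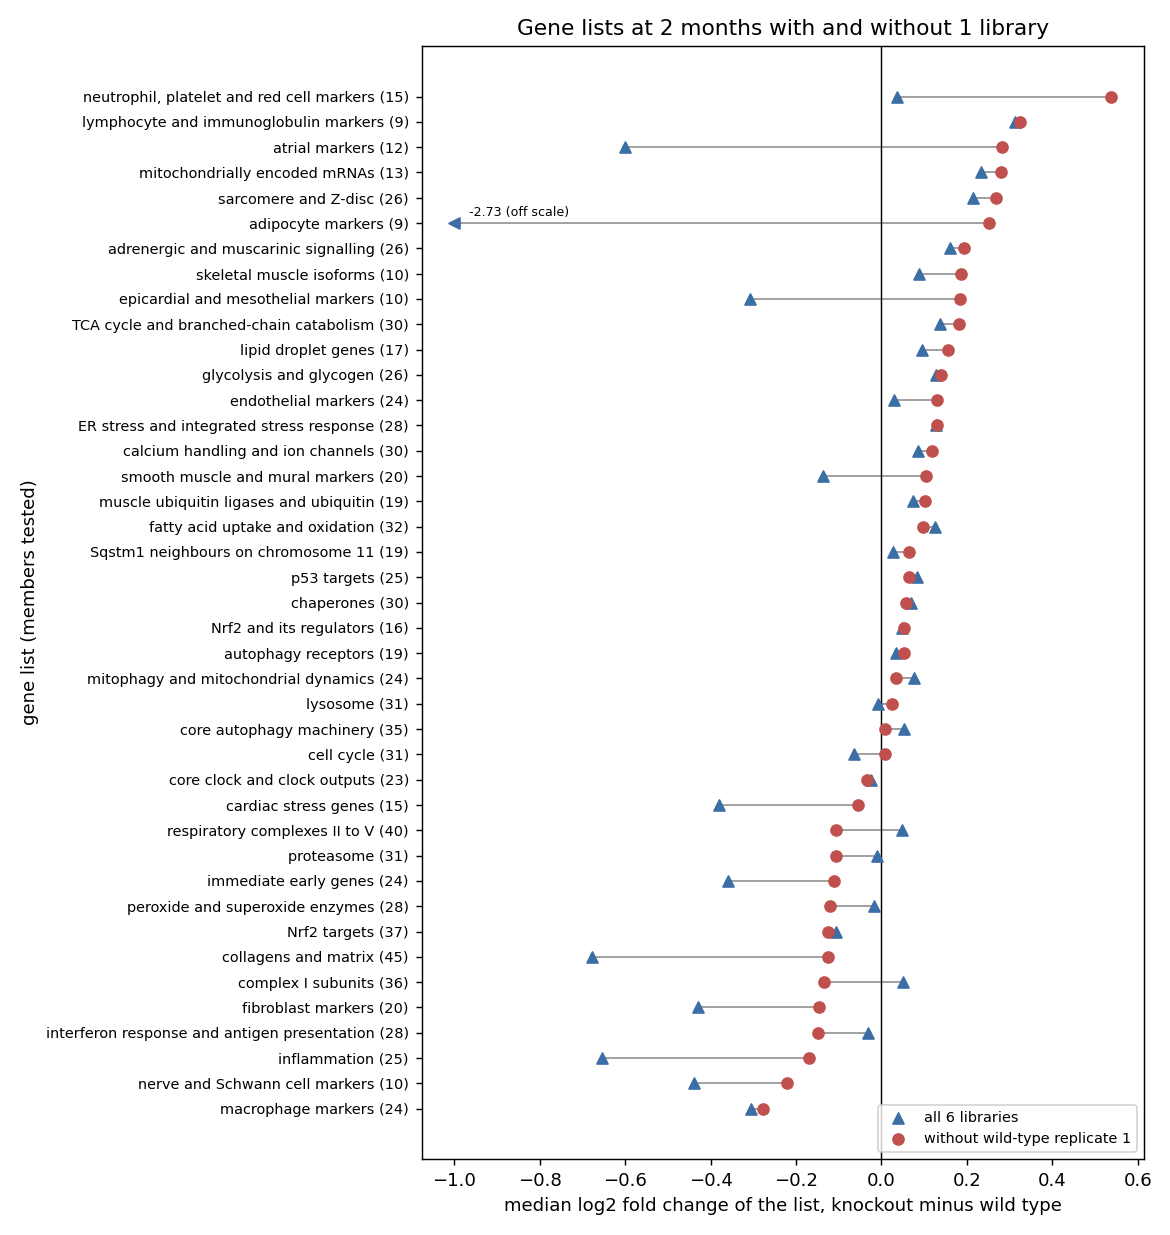
Median log2 fold change (horizontal axis, knockout minus wild type) of 41 gene lists (rows, number of members tested in brackets) with all 6 hearts (blue) and without wild-type replicate 1 (red); the blue marker of fat cell genes is off the scale at −2.73. Macrophage markers stay near −0.3, while matrix genes move from −0.68 to −0.13.

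The hearts aged 15 months share no library with those at 2 months, so the genes first in order at 2 months were followed there. Several of the older hearts also carried atrial transcripts. Myl7 was at 39.7, 15, 0.357 and 26.9 CPM in the older controls and 58.1, 0.0695, 0.482 and 0.0421 CPM in the older knockouts, high in 3 of 4 and in 1 of 4 hearts. The 15-month values below include these hearts, and none is given without them. Of the 12 genes that lay highest in order at 2 months, 5 had a log2 fold change above 0 at 15 months, with a median of −0.02 and a range from −0.26 to 0.28, and 0 were without overlap. Of the 12 lowest, 8 lay below 0, with a median of −0.10, and 2 had no overlap (Cnn1 and Epdr1). The median over all genes tested at 15 months was 0.00829. Shares of all genes without overlap or on either side of 0 at that age are not given here. The shares at 2 months are for 3 against 3 hearts, so these counts stand without a background.

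Epn3 lay higher in the young knockouts and not in the older ones. At 15 months the controls had 15.5, 12.6, 17.1 and 12.6 CPM and the knockouts 13.6, 13, 16.2 and 13.7 CPM. All 8 values lie below the 3 young knockout hearts, and the genotypes overlap. The knockout effect at 15 months was −0.03 (SE 0.14), and the difference between the effects at 15 and 2 months was −1.11 (SE 0.21, unadjusted p = 0.000116, edgeR adjusted p = 0.9999). DESeq2 called this difference, for Epn3 alone (adjusted p = 0.0283), and without wild-type replicate 1 for Epn3 (0.0443) and Ndnf (−2.01, SE 0.43, adjusted p = 0.0413). Over all 15528 genes 0 passed the edgeR test of the difference (0%), with 577 (3.72%) at an unadjusted p under 0.05. Klhdc7a was at 10.4, 9.2, 10.9 and 8.33 CPM in the controls and 5.07, 12.1, 8.79 and 6.81 CPM in the knockouts at 15 months, with full overlap. Its difference between the ages was −1.64 (SE 0.35). For Ndnf the difference was −1.54 (SE 0.44), for Osbpl3 −0.85 (SE 0.20) and for Aen −0.91 (SE 0.21), none past the adjusted threshold by edgeR. Epn3 and these genes were chosen for their values at 2 months, which enter the difference. Choice alone can therefore make such a difference large, and its share was not tested.

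Other genes held their direction at both ages. Mgat4b was at 46.4, 61, 47.6 and 39.6 CPM in the controls and 59.5, 57.5, 65.1 and 53.8 CPM in the knockouts at 15 months, where wild-type replicate 2 reached into the knockout range (0.28, SE 0.14). Srxn1 was at 13.7, 19.4, 15.3 and 15.2 CPM in the controls and 11.4, 11.1, 11.6 and 10.6 CPM in the knockouts, with no overlap (−0.51, SE 0.14). Epdr1 was at 17.4, 17.2, 19.2 and 18.7 CPM in the controls and 14.4, 13, 13.5 and 13.3 CPM in the knockouts, again with no overlap (−0.42, SE 0.11). For Sqstm1 the difference between the ages was 0.07 (SE 0.37). The matrix list, below 0 at 2 months, had a median of 0.56 at 15 months, and macrophage markers a median of 0.09.

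**Figure D5:**
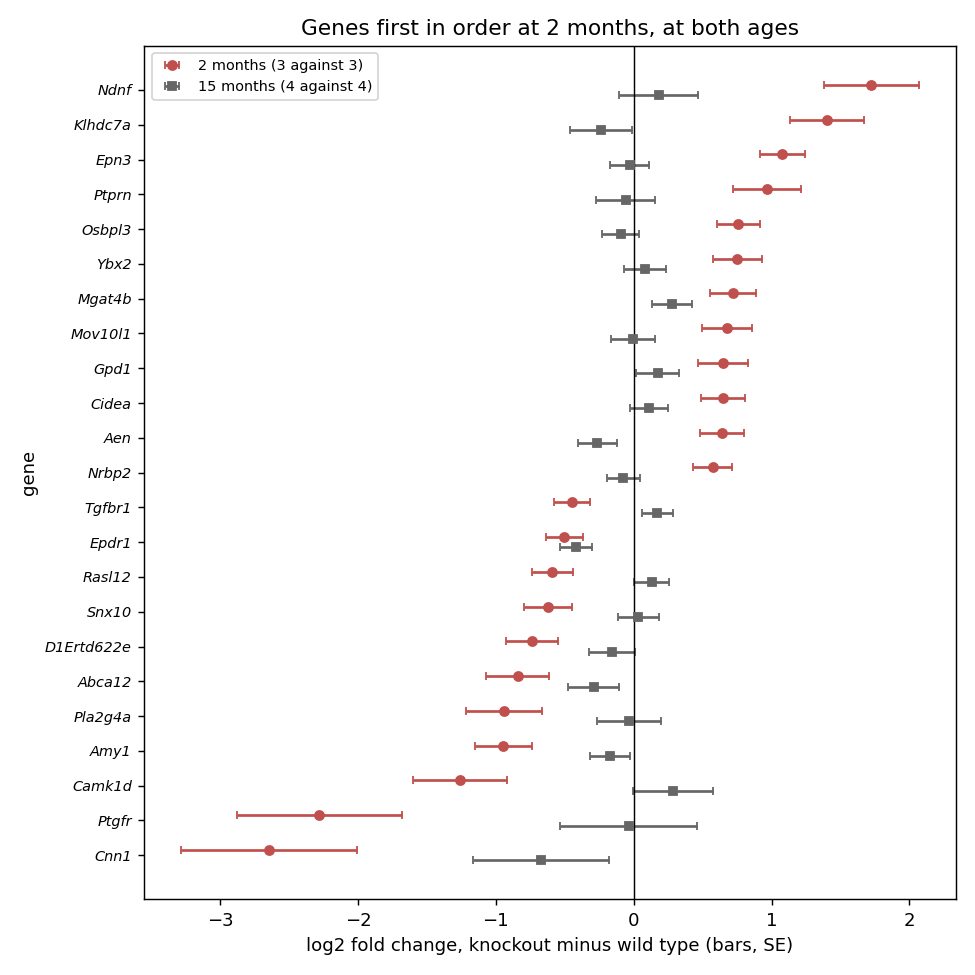
Log2 fold change (horizontal axis, knockout minus wild type; bars are SE) of the 12 genes highest and 11 of the 12 lowest in the order at 2 months (red circles, 3 against 3 hearts) and the same genes at 15 months (grey squares, 4 against 4 hearts). The 12 higher genes lie between 0.57 and 1.72 at 2 months, having been chosen there, and between −0.26 and 0.28 at 15 months.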

How the data were processed

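RNA was measured by stranded, rRNA-depleted total RNA sequencing of whole hearts, per the labels' protocols. The authors deposited raw counts per gene, made with cutadapt 1.16, STAR 2.7.3a and featureCounts 1.6.3 on GRCm38 per the submitters' processing notes; the sources used here do not give strand setting, annotation release or multimapping. Groups came from the labels. Genes passed filterByExpr (minimum count 10, total 15; 15528 genes), and 14 libraries were fitted in 4 groups with TMM scaling by the edgeR 4.0.16 quasi-likelihood test (R 4.3.3), with Benjamini-Hochberg adjustment over all genes at 0.05; CPM are TMM-scaled. Alternatives used DESeq2 1.42.0, limma 3.58.1 and the settings in the closing section. The fitting code was tested on simulated data. Named genes are Sqstm1, the 12 higher and 12 lower genes with the smallest p, no overlap and a mean CPM of at least 1, the first 8 and 8 without wild-type replicate 1, any gene past the threshold in an alternative, and the 2 members of each list with the smallest p; other genes were named for their role or after their values were seen. Some genes of these rules are not reported here. Members and lists were chosen with earlier results of these data known.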

Additional observations from a re-analysis of the deposited data

Results flagged for a closer look

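In the knockout hearts at 15 months, which serve only as the second age, Sqstm1 was at 36.99 CPM in replicate 2 and at 14.62 to 17.58 CPM in the other 3. The gap from this heart to the next was 0.867 of the range of the group, above the critical value of 0.829 for 4 samples. Among 50 groups of 4 examined this was the 1 that stood out in this way, and chance gives about 1 in 20. No result at 2 months used this heart in its mean, and it enters the estimate of spread.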

How the results depend on the processing

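Sqstm1 kept its direction and stayed past the threshold in each alternative run, from −3.43 to −3.22 with adjusted p up to 0.0175, the value under the replicate block. Replicate numbers did not pair the samples throughout. Deviations of same-numbered hearts correlated at −0.0456, 0.00407 and 0.308 in replicate order, and those of differently numbered hearts at −0.198 to 0.179. The replicate 3 hearts thus had the highest value, and they also shared a high Ciart. Whether these hearts were handled together was not tested. Not every heart correlated best with its own number, and the block left Sqstm1 as the only call. The count of higher genes, 0, became 2 with no filter on low counts, 1 at a mean CPM of 1 or more, 4 by DESeq2, 2 with only the 2-month hearts and wild-type replicate 1 left out, 4 by DESeq2 with it left out and 1 at an adjusted p of 0.1. The count of lower genes, 1, became 3 by DESeq2 and 2 by DESeq2 without that heart. The count for the difference between ages, 0, became 1 by DESeq2. The cause was not tested. Of 2954 log2 fold changes over 157 genes, 2902 kept direction and side of the threshold, 15 passed it and 37 turned direction, in 13 genes. They turned to the following: with only the 2-month hearts and wild-type replicate 1 left out, 0.01511 for Gpx3, 0.08039 for Dkk3, 0.98 for Cfd and 0.29 for Nppa; by DESeq2 with it left out, 0.005421 for Gpx3, 2.74 for Plin1, 0.06996 for Dkk3, 0.86 for Sln, 0.99 for Cfd, 1.72 for Myl7 and 0.29 for Nppa; by limma voom with it left out, 0.04428 for Gpx3, 0.97 for Plin1, 0.07272 for Dkk3, 0.44 for Sln, 0.08251 for Tcf21, 0.02301 for Vwf, 0.60 for Cfd, 1.38 for Myl7 and 0.32 for Nppa; with an atrial score as covariate, 0.44 for Cfd, 0.89 for Myl7 and 0.54 for Nppa; by limma voom with all hearts, 0.04453 for Nppb. Leaving out 1 heart at a time, the genes that turned ranged as follows: Cacna1h −0.08423 to 1.22, Gpx3 −1.29 to 0.01664, Psma1 −0.25 to 0.09071, Plin1 −7.37 to 3.69, Dkk3 −5.81 to 0.08385, Sln −13.24 to 1.99, Cfd −4.20 to 0.98, Nfe2l2 −0.22 to 0.34, Myl7 −10.44 to 1.61, Nppa −0.89 to 0.30, Nppb −0.75 to 0.26. DESeq2 and limma voom without wild-type replicate 1 were chosen after seeing the data. With 3 hearts a group precision is limited, and leaving out a control leaves 2.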
